A study of Mus musculus with 6 samples.

Results

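The cytosolic ribosomal protein genes encode the protein components of the ribosomes that translate messenger RNA in the cytoplasm. They were picked out by symbol, as every gene named Rpl or Rps followed by a number, with the endings a, x, l or l1 allowed, together with Rplp0, Rplp1, Rplp2 and Rpsa. A gene counted only through probe sets that the platform annotation ties to a single symbol. This gave 60 ribosomal protein genes of 19937 genes in all, carried by 192 of the 28192 tested probe sets. Each gene was represented by its brightest probe set, the one with the highest mean over all arrays. The symbols covered 20 proteins of the small (40S) subunit, 33 of the large (60S) subunit and 7 paralogues, which are diverged copies of a parent gene. Such a symbol belongs to 83 protein-coding genes of the RefSeq gene table, of which 59 had a single-symbol probe set; the other member, Rps4l, is listed in that table under another gene type. The 24 without such a probe set, Rpl11, Rps26 and Rpl22l1 among them, were not analysed here.

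The arrays compare mouse double-negative (DN) thymocytes, T-cell precursors that carry neither CD4 nor CD8. The RAG-/- group has 3 arrays of DN cells from Rag2-/- mice, which cannot assemble antigen receptor genes and so hold their thymocytes at the DN step; it is the control in the labels. The DNTLX3+ group has 3 arrays of DN cells from wild-type C57Bl/6 mice that were given the retrovirus pMSCV-GFP-TLX3, sorted, and grown on irradiated OP9-DL1 stroma, which presents a Notch ligand, in medium with IL-7 and Flt3L for 4 to 5 weeks; the labels call it tumoral. TLX3 encodes a homeobox factor that some human T-cell leukaemias express. Both groups came from thymi of mice aged 4 to 6 weeks and were depleted of CD4- and CD8-bearing cells before flow sorting. Cells given an empty virus were not analysed here, and genotype, virus and possibly culture cannot be told apart. The labels do not settle if the RAG-/- cells were cultured or if the replicates are separate mice or cultures; p-values therefore cover the spread of these arrays, which may be technical. In a bulk sample, fewer cells of a type and less RNA per cell cannot be told apart either.

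A ribosome needs most of its proteins in equal numbers. Most transcripts of ribosomal proteins begin with a run of pyrimidines, the TOP motif, through which mTOR signalling sets their translation. Ribosomal protein genes are among the most strongly transcribed genes of dividing cells, and unassembled Rpl5 and Rpl11 hold back Mdm2, the inhibitor of p53. In developing thymocytes Rpl22 is needed by alpha-beta T-cell precursors. RPL5, RPL10 and RPL22 are mutated in human T-cell leukaemia, and RPS19 is the gene most often mutated in Diamond-Blackfan anaemia, a failure of red cell production. Mouse ribosomal protein genes also have many processed copies across the genome, so a probe set named for a gene may lie at the gene itself or at a copy elsewhere.

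Values are log2 expression levels per probe set, and a difference is the DNTLX3+ mean minus the RAG-/- mean. RAG-/- arrays resembled each other closely, with correlations over probe sets of 0.993 to 0.994, and the DNTLX3+ arrays less so, at 0.976 to 0.986. No pair of arrays shared more than 43 identical values. The T-lineage list was bright in both groups, with mean levels of 10.8 to 10.9 in the RAG-/- and 10.2 to 10.6 in the DNTLX3+ arrays, although 7 of its 10 genes were lower and 1 was higher in the DNTLX3+ group. Markers of other cell types moved with the groups. All 12 myeloid and dendritic markers were lower in the DNTLX3+ arrays, where their mean level was 5.70 to 5.94 against 8.88 to 9.11. So were 8 of 9 natural killer markers (5.46 to 5.62 against 7.61 to 7.77) and 7 of 10 thymic epithelial markers (6.40 to 6.82 against 8.42 to 9.04). Another thymic epithelial marker, Cldn3, was higher by 0.97, and the other 2 were not called. Of 6 stromal fibroblast markers 2 were lower, with means of 6.27 to 6.47 against 6.64 to 6.96; of 4 B-cell markers 2 were higher and 1 lower, and of 2 erythroid markers 1 was higher and 1 lower. Of Cd4, Cd8a and Cd8b1, 1 was higher, Cd8b1, with a difference of 1.52. The part of these other cells in the ribosomal protein values was not tested.

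As a group the ribosomal protein genes did not move in a single direction. By limma with Benjamini-Hochberg adjustment over all tested probe sets, at an adjusted p under 0.05, 20 of the 60 genes were called, which is 33.3% against 42.4% of all genes. They divided into 10 higher (23% of all genes) and 10 lower (19.4% of all genes) in the DNTLX3+ arrays. The median difference was 0.01, against 0.11 over all genes, and 46 of the 60 differences lay within 0.5 log2 units of zero. With a difference of at least 1 required as well, 4 genes were called (6.51% of all genes): Rps19, Rpl7a and Rpl26 higher (1.44% of all genes) and Rpl30 lower (5.07% of all genes). Groups did not overlap for 32 members, 53.3% against 58.3% of all genes. The split of 10 higher and 10 lower moved with the scaling, to 13 and 6 after a further quantile normalization, 7 and 11 with equal array medians, and 12 and 10 after cyclic loess. The shares of all genes under these scalings are not given here, so this movement is not shown to be particular to these genes.

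**Figure D1:**
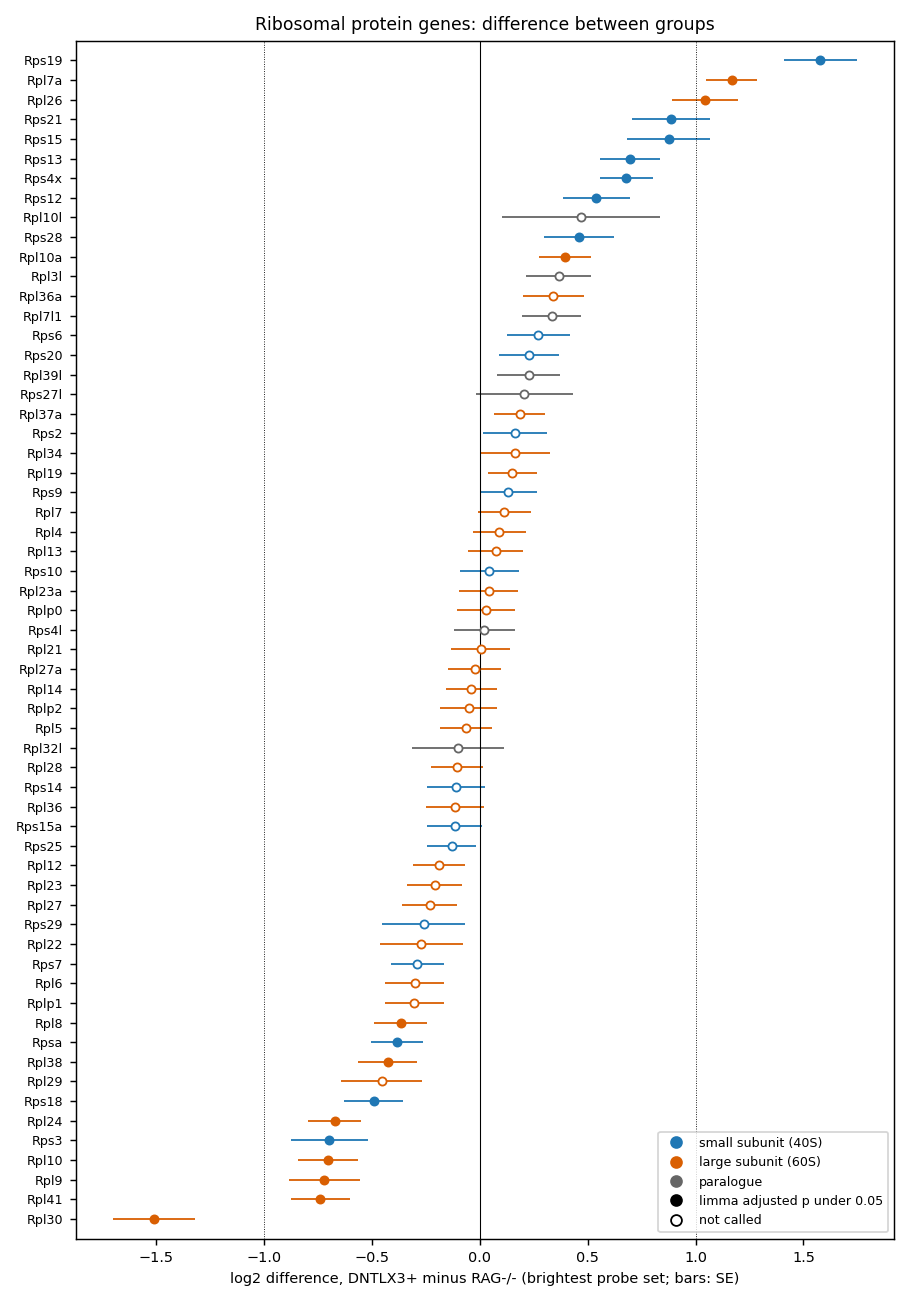
Difference between the group means (DNTLX3+ minus RAG-/-, log2 units) of each of the 60 ribosomal protein genes, ordered by size, with bars for the standard error; colours mark 40S, 60S and paralogue genes and filled points are the 20 genes called by limma. Differences run from -1.51 for Rpl30 to 1.58 for Rps19, and the 7 paralogues are all open points.

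Of the 20 small-subunit genes 7 were higher and 3 lower, beside 23% and 19.4% of all genes. Rps19, a protein needed to mature the RNA of the small subunit, had the largest difference of all 60 genes. Its levels were 9.40, 9.24 and 8.86 on the RAG-/- arrays and 10.53, 10.89 and 10.81 on the DNTLX3+ arrays, so every DNTLX3+ array lay above every RAG-/- array. The difference was 1.58 (SE 0.17), a 2.99-fold rise, with a limma adjusted p of 0.000337. Rps19 has a single probe set, which lies at its own position on chromosome 7. The difference was between 1.42 and 1.70 under 15 other settings of the analysis. These are all but the choice of the own-position probe set and limma treat. Among them the filters on dim probe sets, the intensity trend, the replicate block and averaging of probe sets could not move it. Only the scalings, array weights and leaving out an array could.

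Rps21 and Rps15 followed. Rps21 stood at 9.95, 9.94 and 9.63 in RAG-/- cells and at 10.43, 11.07 and 10.68 in DNTLX3+ cells, a difference of 0.89 (SE 0.18, limma adjusted p = 0.00499). Rps15 stood at 10.44, 10.51 and 10.37 against 11.68, 11.38 and 10.89, a difference of 0.88 (SE 0.19, limma adjusted p = 0.00688). Both sets of arrays were apart for each gene. Both probe sets of Rps21 were called higher, whereas of the 3 probe sets of Rps15 only the brightest was.

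Rps4x, the X-linked form of a small-subunit protein, read 11.67, 11.64 and 11.48 on RAG-/- arrays and 12.17, 12.34 and 12.31 on DNTLX3+ arrays, without overlap. It rose by 0.68 (SE 0.12, limma adjusted p = 0.00308), and all 4 of its probe sets were called higher, by 0.46 to 1.33. Rps13, a small-subunit protein near the contacts with the large subunit, rose by 0.69 and all 3 of its probe sets were higher, by 0.38 to 1.31. Rps12 rose by 0.54 and Rps28 by 0.46, with 4 of 7 and 4 of 5 probe sets called higher and none lower. No probe set of either gene was placed at the gene itself.

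The 3 small-subunit genes that fell were Rps3, Rps18 and Rpsa. Rps3, a protein at the entry of the messenger RNA channel that also acts in DNA repair, read 11.95, 12.06 and 11.78 against 10.98, 11.61 and 11.11. It fell by 0.70 (SE 0.18, limma adjusted p = 0.0130). Rps18, in the head of the small subunit, read 12.93, 12.91 and 12.68 against 12.24, 12.52 and 12.30 and fell by 0.49 (SE 0.14, limma adjusted p = 0.0186). The arrays of the groups did not overlap for either gene. The other probe sets of Rps18 also ran low: 6 of its 7 were called lower, the lowest at -1.27, and the seventh, at -0.24, was not called. Rpsa, also known as the laminin receptor, differed by -0.38 at its brightest probe set.

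Small-subunit genes that are widely studied for other reasons were not called. Rps6, the substrate of the S6 kinases, differed by 0.27 (limma adjusted p = 0.156), with levels of 12.74, 12.79 and 12.48 against 12.75, 12.98 and 13.09 that overlapped; none of its 7 probe sets was called. After a further quantile normalization Rps6 was called higher at 0.44 (limma adjusted p = 0.0201). Rps14, lost in the 5q- syndrome, differed by -0.11 and its groups overlapped. Rps7, which binds Mdm2, differed by -0.29 (limma adjusted p = 0.0871), with no overlap between 12.41, 12.38 and 12.25 and 11.97, 12.18 and 12.02. It was called lower with an intensity trend and robust estimation (limma adjusted p = 0.0325). This brightest probe set is not placed at the gene. The probe set of Rps7 at its own position, on chromosome 12, went the other way, by 0.35 (limma adjusted p = 0.0875), also without overlap.

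Of the 33 large-subunit genes 3 were higher and 7 lower, beside 23% and 19.4% of all genes. Rpl30, which lies at the interface of the subunits, had the largest fall. It read 9.77, 9.73 and 9.63 on the RAG-/- arrays and 7.75, 8.45 and 8.40 on the DNTLX3+ arrays, so that the groups were far apart, with DNTLX3+ replicate 1 the lowest. It fell by 1.51 (SE 0.19), 2.85-fold, with a limma adjusted p of 0.000611. Rpl30 too has a single probe set at its own position, on chromosome 15. It differed by -1.64 to -1.29 across those settings, of which the same ones could not move its difference.

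Rpl41, Rpl9, Rpl10 and Rpl24 fell by similar amounts. Rpl41, a very short basic peptide, read 11.73, 11.77 and 11.74 against levels between 10.81 and 11.21, a difference of -0.74 (SE 0.14, limma adjusted p = 0.00323). The only probe set of Rpl41 was not placed at the gene itself. Rpl10, which joins the large subunit late and is mutated in T-cell leukaemia, read 12.74, 12.80 and 12.61 against 11.81, 12.18 and 12.03. It fell by 0.70 (SE 0.14, limma adjusted p = 0.00427). For Rpl41 and Rpl10 every DNTLX3+ array was below every RAG-/- array. Rpl9 fell by 0.72 and Rpl24 by 0.67, and Rpl38 and Rpl8 by 0.43 and 0.37. Rpl29 differed by -0.45 without overlap and was not called (limma adjusted p = 0.076). With equal array medians it was called lower at -0.52 (limma adjusted p = 0.0417). The only probe set of Rpl29 was not placed at the gene itself. Rpl9 was not called after a further quantile normalization (-0.32, limma adjusted p = 0.157), as the mean of its probe sets (-0.07) or at its own position (-0.29). As means of their probe sets Rpl10 (-0.16) and Rpl24 (-0.04) were not called either.

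The 3 large-subunit genes that rose were Rpl7a, Rpl26 and Rpl10a. Rpl26, which sits near the exit of the nascent chain and binds p53 messenger RNA, read 8.07, 8.38 and 7.97 against 8.99, 9.27 and 9.30. It rose by 1.04 (SE 0.15), 2.06-fold, with a limma adjusted p of 0.00119 and no overlap. Its single probe set lies at its own position on chromosome 11. Rpl7a read 5.81, 5.84 and 5.88 against 7.10, 7.01 and 6.92, a difference of 1.17 (SE 0.12, limma adjusted p = 0.00026). Its RAG-/- levels were below the array medians of 6.22 to 6.35, so no fold is given, and its brightest probe set does not lie at the gene's own position. Rpl10a rose by 0.39.

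Other leukaemia-linked large-subunit genes were not called at their brightest probe set. Rpl22 ranged from 9.13 to 9.50 on RAG-/- and from 8.67 to 9.41 on DNTLX3+ arrays, with overlap, and differed by -0.27 (SE 0.19, limma adjusted p = 0.28). Rpl5 read 11.85, 11.87 and 11.79 against 11.68, 11.87 and 11.77, a difference of -0.06 (SE 0.12). None of its 4 probe sets is placed at the gene itself, and 2 others were called lower: the brighter read 12.06, 12.14 and 11.996 against 11.46, 11.20 and 11.22, a difference of -0.77 (limma adjusted p = 0.00207), and the other differed by -0.52 (limma adjusted p = 0.00997). A miss of the threshold does not show that the levels were equal.

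The stalk, the flexible arm that recruits translation factors, is built from Rplp0, Rplp1 and Rplp2, and none of the 3 was called. Rplp0 differed by 0.03 (SE 0.13), with 13.12, 13.17 and 13.01 against 12.94, 13.23 and 13.21. Rplp1 differed by -0.30 (SE 0.14, limma adjusted p = 0.102) without overlap, and was called lower after cyclic loess (limma adjusted p = 0.0491) and with an intensity trend (limma adjusted p = 0.0462). Rplp2 differed by -0.05 (SE 0.13) at its only probe set, with 7.06, 7.02 and 6.91 against 6.83, 7.13 and 6.88. These levels are far below those of Rplp0 and not far above the array medians of 6.22 to 6.35, which limits what the value can show.

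None of the 7 paralogues was called at its brightest probe set. They were Rpl3l, which replaces Rpl3 in striated muscle, Rpl10l, Rpl39l, Rpl32l, Rpl7l1, Rps27l and Rps4l, and their differences ran from -0.10 for Rpl32l to 0.47 for Rpl10l. Rpl10l, the autosomal copy that serves in male germ cells, was uneven within its group: 4.74, 6.22 and 6.40 on the DNTLX3+ arrays against 5.24, 5.41 and 5.29. Without DNTLX3+ replicate 1 its difference was 0.99 (limma adjusted p = 0.000936), and with array weights 0.84 (limma adjusted p = 0.012). Rpl7l1 differed by 0.33 (limma adjusted p = 0.078); it was called at 0.43 without the same array, at 0.48 after a further quantile normalization or cyclic loess, and at 0.36 with array weights. The other probe set of Rps4l, which is not at the gene, was called higher at 0.88 (limma adjusted p = 0.0011), and the mean of both at 0.45. Rpl36a, an X-linked large-subunit gene, differed by 0.34 (limma adjusted p = 0.0769); it was called at 0.43 and 0.40 after the same scalings and at 0.70 as the mean of its probe sets.

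**Figure D2:**
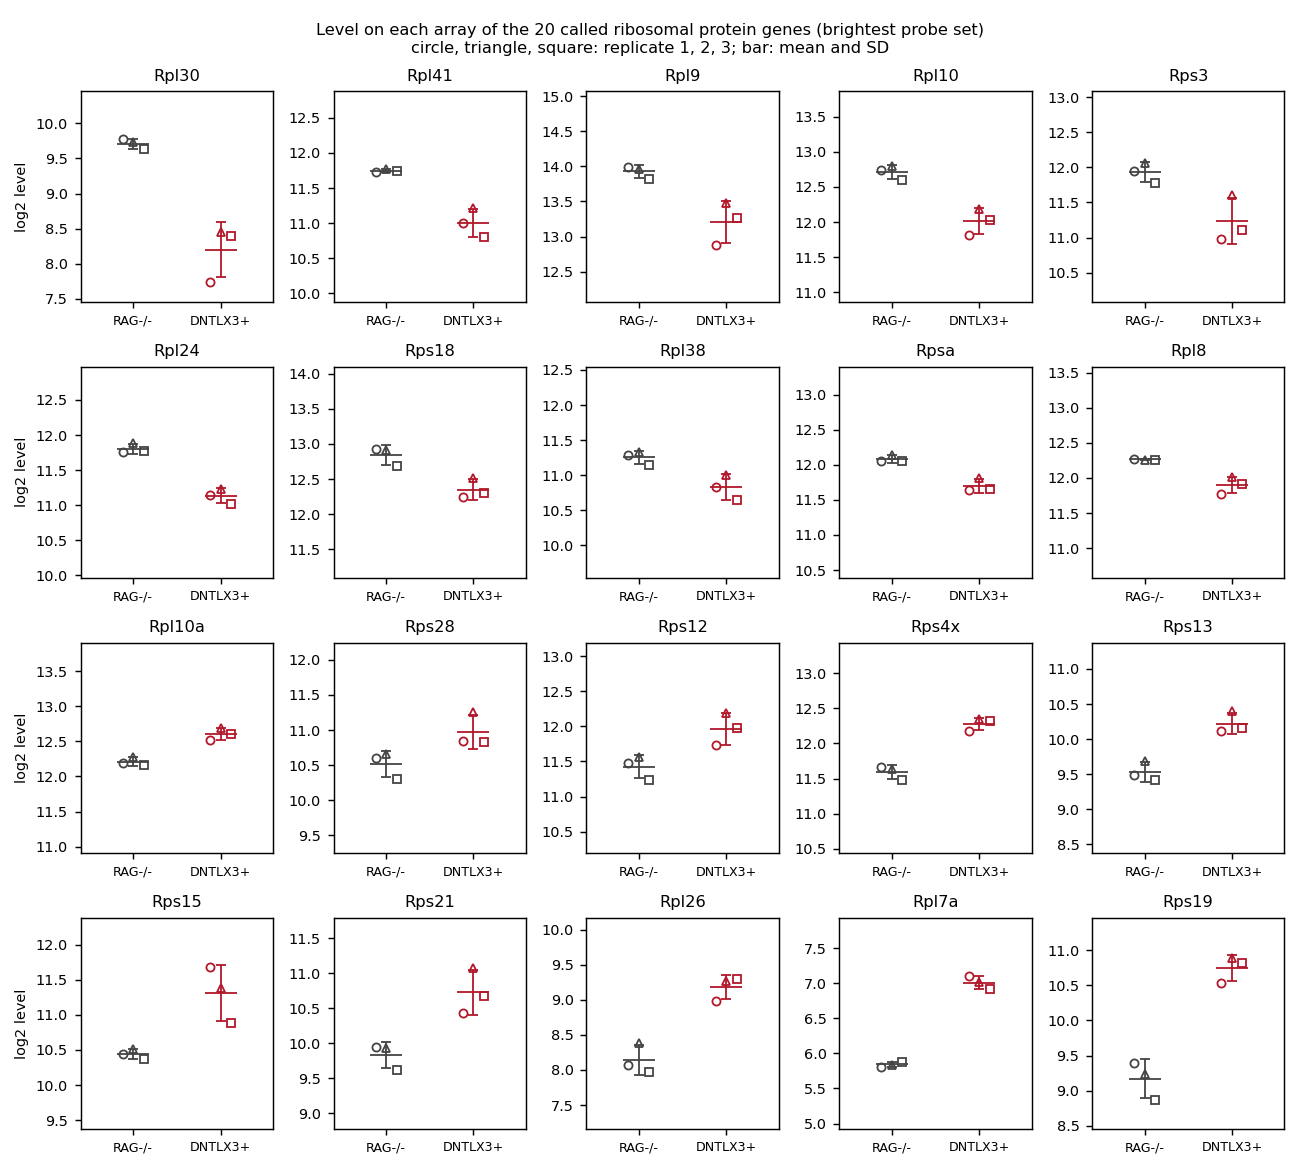
Log2 level on each of the 6 arrays for the 20 called ribosomal protein genes at their brightest probe set, 1 panel per gene, with the vertical axis spanning 3 log2 units around the gene's own mean; symbols mark replicates, and bars the group mean and SD. The groups do not overlap in any of the 20 panels, and the widest gaps are those of Rps19, Rpl30, Rpl7a and Rpl26.

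The calls differed in whether they held when an array was left out. Of the 20, 12 were called whichever array was left out. The other 8 were Rpl10a, Rps12 and Rps28 among the higher, and Rpl38, Rpl8, Rpsa, Rps18 and Rps3 among the lower. A lost call need not mean that the difference moved, because fewer arrays also give less precision. For Rpl8 the difference was -0.36 to -0.37 without any 1 of the RAG-/- arrays, with a limma adjusted p of 0.100 to 0.120. The difference of Rps28 did move, to 0.32 without DNTLX3+ replicate 2 from 0.46 with all arrays. Only 6 genes were called lower without RAG-/- replicate 1 and 5 without RAG-/- replicate 2, against 10 with all arrays. The share of all genes called without those arrays is not given here, so the drop is not shown to be particular to these genes. Rpl26, Rpl30, Rpl41, Rpl7a, Rps13, Rps15, Rps19, Rps21 and Rps4x kept their call under those 15 settings. Of these 9, Rps15 was not called at the probe set at its own position (0.07, limma adjusted p = 0.716). Rpl41 and Rpl7a have no probe set placed at their own position, so this check could not be made for them. Limma treat, which tests against a difference of 0.5, called 2 genes higher and 1 lower in all.

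Within a gene, probe sets often disagreed. Single probe sets served 22 of the genes, and the other 38 had up to 10 each. Over all 192 probe sets 56 were called higher (22.9% of all single-symbol probe sets) and 22 lower (19.7%), so that 40.6% were called against 42.6% of all. In 20 of the 38 genes the differences had both signs, and in 6 genes, Rpl10, Rpl24, Rpl38, Rpl9, Rps25 and Rpsa, some probe sets were called higher and others lower. The median range between the lowest and the highest difference of a gene was 0.80. All probe sets shared a call, or shared its absence, in 17 genes.

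Rpl13, a large-subunit protein, had the widest range, 2.92. Its brightest probe set differed by 0.07, while another of its 9, placed by its neighbours on chromosome 4 between Gdf6 and 2610301B20Rik, read 8.26, 7.95 and 7.41 against 10.58, 10.97 and 10.65. That is a difference of 2.86, the largest of the 192, and all 3 DNTLX3+ arrays lay above the RAG-/- arrays. Rps25, which is needed for translation from some viral internal entry sites, had 6 probe sets between -0.89 and 1.19, with 2 called higher and 1 lower.

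**Figure D3:**
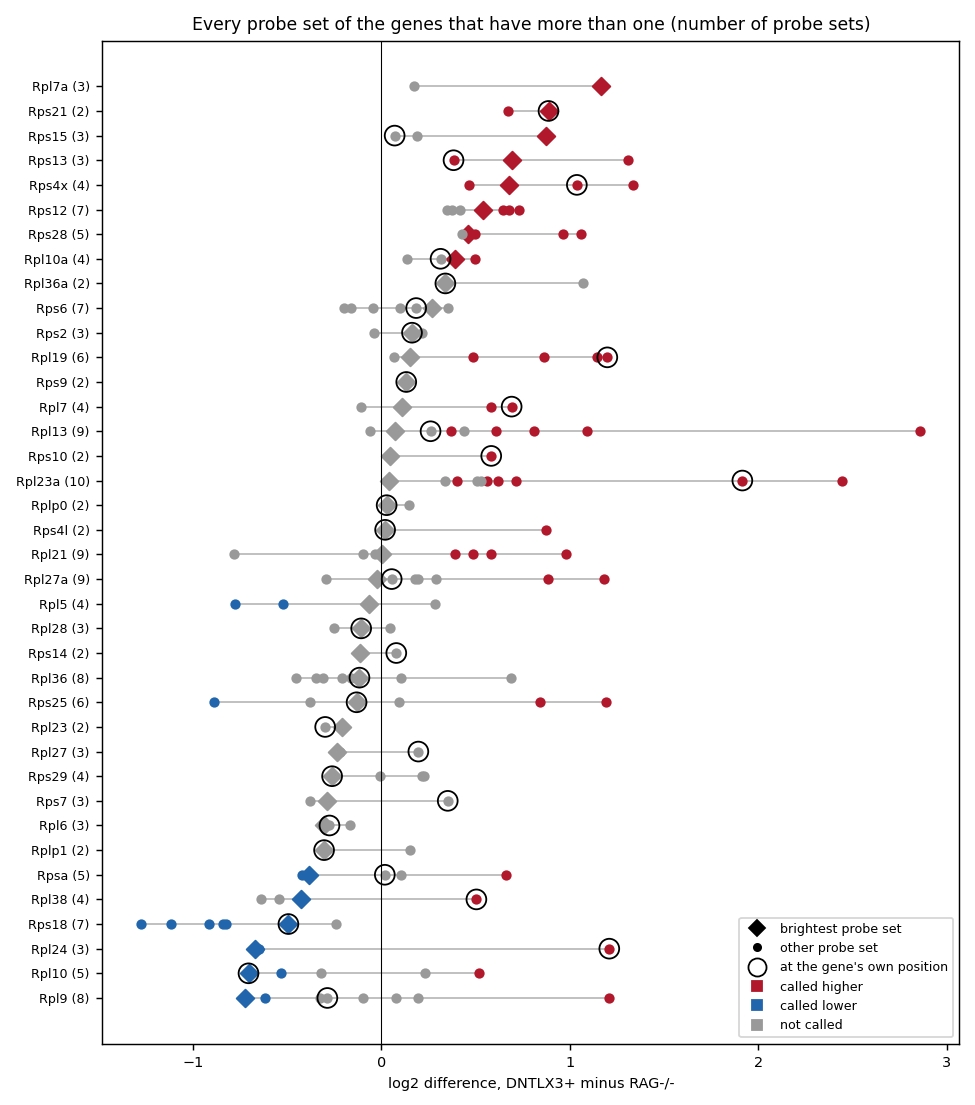
Log2 difference (DNTLX3+ minus RAG-/-) of every probe set of the 38 genes with more than 1, a row per gene; diamonds mark the brightest probe set, rings the probe set at the gene's own position, and colours the limma call. Rpl13 spreads over 2.92 log2 units, whereas the 4 probe sets of Rps4x lie on the same side of zero.

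Probe sets of this platform are numbered along the chromosomes, which allowed each to be placed by the genes around it. A probe set was placed where at least 8 of the 10 nearest single-probe-set genes lay on the same chromosome. Of 18818 placed genes with a single probe set, 99.6% lay at their own position in the gene table. Among the ribosomal protein genes 52 had a probe set at their own position, and for 20 of these the brightest was another. In all, 28 of the 60 brightest probe sets were not placed at the gene's own position. No sequence of the probes was used here, so which transcript each probe set reads is not given by these data.

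The choice of probe set changed what was measured for those 20 genes. At the gene's own position 8 of them were higher and 0 lower, 4 of the 8 by at least 1 (1.44% of all genes). Of their brightest probe sets 4 were higher and 4 lower. The background for a call was 23% higher and 19.4% lower of all genes. Over the 52 genes the own-position probe sets gave 11 higher and 5 lower calls, against the same background. With a difference of at least 1 they gave 6 higher and 1 lower, beside 1.44% and 5.07% of all genes. When both probe sets were compared within each array, with limma over all 237 genes in which they are not the same, the differences between groups diverged in 10 of the 20 ribosomal protein genes, against 27% of all 237.

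Rpl24, a protein near the subunit interface, was called in opposite directions. Its brightest probe set, placed on chromosome 11 between Olfr332 and Olfr330, read 11.76, 11.89 and 11.77 against 11.14, 11.24 and 11.02, a difference of -0.67. The probe set at the gene on chromosome 16, between Cblb and Zbtb11, read 7.49, 7.12 and 7.25 against 8.77, 8.41 and 8.32. That is a rise of 1.21 (SE 0.16, limma adjusted p = 0.000796), and the arrays were apart at both probe sets in opposite order.

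Rpl23a, which lies at the exit of the nascent chain, was not called at its brightest probe set, at 0.04. At the gene's own position on chromosome 11 it read 9.52, 9.59 and 9.41 against 11.12, 11.75 and 11.39, a rise of 1.92 (SE 0.17, limma adjusted p = 0.00013). None of its 10 probe sets was lower, and 6 were higher. Rpl19 behaved in the same way, with 0.15 at the brightest probe set and 1.20 (SE 0.18, limma adjusted p = 0.00133) at its own position, where it read 6.86, 6.94 and 6.90 against 8.46, 8.10 and 7.72.

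Rpl38, a regulator of Hox messenger RNA translation, differed by -0.43 at its brightest probe set and by 0.50 at its own position, and both were called. Rpsa differed by -0.38 and 0.02, Rpl7 by 0.11 and 0.69, Rps10 by 0.04 and 0.58, and Rps15 by 0.88 and 0.07. Rps4x was higher at both, by 0.68 and 1.04. Rps19, Rpl26, Rpl30, Rpl10, Rps3, Rps18, Rps21 and Rpl8 have their brightest probe set at the gene itself, so their values do not depend on this choice.

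The promoters of the genes with the largest calls at their own position are given at their annotated start of transcription, which was not measured here. They are the 3 rises and 3 falls that were largest among genes with a single entry in the RefSeq promoter table (GRCm38.p6), each from 100 bases before the start to the first 20 transcribed bases, written 5′ to 3′ on the gene's strand. Capitals mark CCGGAAG, the core of the sites bound by ETS-type factors such as GABP.
Rpl24, chr16:55966175-55966294, plus strand, difference 1.21: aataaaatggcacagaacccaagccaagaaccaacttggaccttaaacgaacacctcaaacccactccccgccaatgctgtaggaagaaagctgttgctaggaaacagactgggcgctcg
Rpl26, chr11:68901466-68901585, plus strand, difference 1.04: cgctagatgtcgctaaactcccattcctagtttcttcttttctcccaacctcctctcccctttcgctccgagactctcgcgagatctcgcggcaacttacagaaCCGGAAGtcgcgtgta
Rps4x, chrX:102189372-102189491, minus strand, difference 1.04: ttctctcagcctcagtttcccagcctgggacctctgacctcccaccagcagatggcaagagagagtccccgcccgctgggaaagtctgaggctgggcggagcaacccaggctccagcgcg
Rpl10, chrX:74270716-74270835, plus strand, difference -0.70: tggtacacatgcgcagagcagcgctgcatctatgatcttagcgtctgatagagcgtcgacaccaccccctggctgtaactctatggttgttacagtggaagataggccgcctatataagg
Rps3, chr7:99483690-99483809, minus strand, difference -0.70: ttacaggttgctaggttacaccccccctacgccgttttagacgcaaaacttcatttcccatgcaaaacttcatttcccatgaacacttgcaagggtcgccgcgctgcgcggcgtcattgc
Rps18, chr17:33955646-33955765, minus strand, difference -0.49: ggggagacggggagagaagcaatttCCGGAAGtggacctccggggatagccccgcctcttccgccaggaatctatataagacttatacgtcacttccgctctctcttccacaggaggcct

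Of the 60 genes 48 were matched in the promoter table by symbol. Motifs were searched from 250 bases before to 50 after the start. CCGGAAG, on either strand, was in 18 of the 48 promoters (37.5%) and in 9.93% of 27025 promoters of all genes. The E-box CACGTG, on either strand, was in 10.4% against 8.09%. TATAAA within the 40 bases before the start was in 0 of the 48 and in 2.78% of all. Around the start, from 15 bases before to 15 after, the pyrimidine runs CTTTCC and CTTTTC on the gene's strand were in 8.33% and 10.4% against 1.67% and 1.25%. CCGGAAG was in the promoter of 2 of the 10 higher genes and of 4 of the 8 lower genes that were matched, counts too small to compare. A match of letters is not a bound site.

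Levels within a group moved together across the ribosomal protein genes. DNTLX3+ replicate 2 gave the highest level of its group in 48 of the 60 genes, 80% against 34.4% of all genes and 56.8% of the 132 other genes with a mean level of at least 11. DNTLX3+ replicate 1 gave the lowest in 38 genes, 63.3% against 41.2% of all genes and 82.6% of the other bright genes. RAG-/- replicate 3 gave the lowest of its group in 45 genes (75%), against 40.8% of all genes and 70.5% of the other bright genes. The median SD of a member was 0.09 in the RAG-/- and 0.16 in the DNTLX3+ group, against 0.10 and 0.20 over all genes. Array weights, which are low for an array that departs from its group, were 0.24 for DNTLX3+ replicate 1, 0.62 and 1.23 for the other DNTLX3+ arrays and 1.31 to 2.12 for the RAG-/- arrays. Whether this shared movement came from the cells or the arrays was not tested.

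The range of signal also differed between the groups, with interquartile ranges of 3.09 to 3.18 in the RAG-/- and 2.47 to 2.85 in the DNTLX3+ arrays. In the deposited values dim genes were shifted up and bright genes down: the median difference was 0.33 over 4029 other genes under a level of 5 and -0.20 over the 132 other genes at 11 and over. Olfactory and vomeronasal receptor genes, which are hardly expressed in thymocytes, had a median of 0.32. The 35 ribosomal protein genes at 11 and over had a median of -0.11, and the 11 genes between 9 and 11 one of 0.33, where the 1898 other genes of that range had -0.13.

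Other scalings moved these medians. For the 35 bright ribosomal protein genes they gave 0.01 after a further quantile normalization, -0.17 with equal array medians and -0.07 after cyclic loess, beside -0.10, -0.26 and -0.18 for the other bright genes. Over all 60 the median was 0.10, -0.05 and 0.06 under the same scalings, so its sign changed with equal medians. The 11 genes between 9 and 11, too few to weigh as a class, kept a positive median of 0.27 to 0.48.

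**Figure D4:**
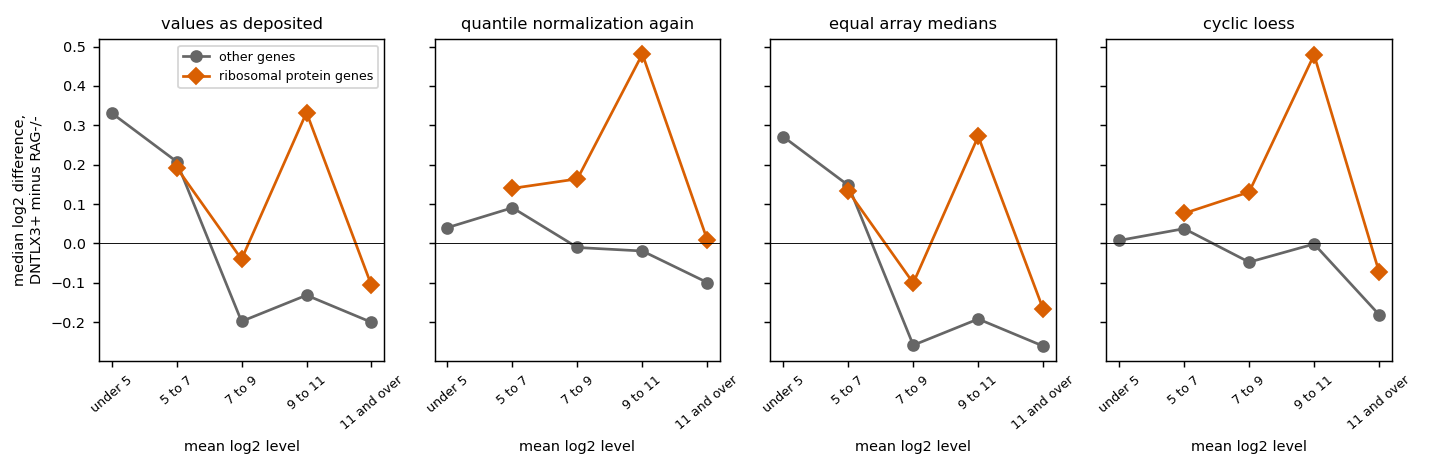
Median log2 difference (DNTLX3+ minus RAG-/-) by mean log2 level, in 4 panels for the deposited values and 3 further scalings; grey circles are other genes and orange diamonds the ribosomal protein genes. In the deposited values the other genes fall from 0.33 below a level of 5 to -0.20 at 11 and over, and cyclic loess brings them nearer to zero below 11.

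Genes that act around the ribosome were described from lists of known roles. Of 26 ribosome assembly factors 14 were higher and 0 lower, beside 23% higher and 19.4% lower of all genes, with a median difference of 0.38 beside 0.11 over all genes. Rrs1, needed to place the 5S particle in the large subunit, read 7.67, 7.74 and 7.80 against 9.34, 9.68 and 9.30, a rise of 1.70 (SE 0.14). Mrto4, a stand-in for Rplp0 during assembly, rose by 1.43, Bysl, a small-subunit factor, by 0.98, and Grwd1, a chaperone of Rpl3, by 0.88. Every DNTLX3+ array lay above every RAG-/- array for these 4 genes. The other scalings called 11 to 19 assembly factors higher and 0 lower; 8 were higher without RAG-/- replicate 3, 1 was lower without DNTLX3+ replicate 2 or 3, and limma treat called 3 higher.

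Of 18 measured translation factors and other TOP transcripts 4 were higher and 1 lower, with a median of 0.05; of all genes 23% were higher and 19.4% lower. The higher ones were Eif2s3x at 0.70, Eef1d at 0.59, Eef1a1 at 0.47 and Eef1b2 at 0.43, the last 3 being parts of the elongation factor that brings aminoacyl-tRNA to the ribosome and of its exchange factor. Eif3h, an initiation factor subunit, fell by 0.68. This split moved to 6 higher and 1 lower after a further quantile normalization, 2 and 2 with equal array medians, where the median was -0.01, and 6 and 2 after cyclic loess. Without RAG-/- replicate 1 or 3 it was 2 and 1.

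Of 17 measured regulators of ribosomal protein synthesis 3 were higher and 5 lower, with a median of -0.23, again beside 23% and 19.4% of all genes. Eif4ebp2, a repressor of cap-dependent translation under mTOR, rose by 1.16, Myc by 0.64 and Eif4ebp1 by 0.43. Myc, which drives transcription of ribosome genes, read 10.50, 10.52 and 10.24 against 10.71, 11.38 and 11.08. Tsc1, an inhibitor of mTOR, fell by 0.74, Rptor, a part of the mTOR complex, by 0.61, Mdm2 by 0.58 and Max, the partner of Myc, by 0.46. The counts were 5 higher and 3 lower after a further quantile normalization, 3 and 6 with equal array medians and 4 and 4 after cyclic loess. They were 1 and 2 without RAG-/- replicate 3, 2 and 3 without replicate 2, and 3 and 2 without replicate 1.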

How the data were processed

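Total RNA of 6 samples was hybridised to 1-colour Affymetrix arrays. The deposited log2 values, 1 per probe set, are the authors' output of RMA from affy in R 2.9.0, as the submitters' processing notes say. RMA corrects background, is designed to bring arrays to a common distribution and summarises probes. The deposited arrays did not share a distribution, with interquartile ranges from 2.47 to 3.18. Their genome build is not stated in the labels. The 6568 probe sets numbered before the genome-ordered ones, with no listed gene, were left out, and 28192 entered the two-sided test of limma 3.58.1 (eBayes after lmFit, without covariate or further normalization; R 4.3.3), with Benjamini-Hochberg adjustment over all of them. A call is an adjusted p under 0.05; a stricter one adds an absolute difference of at least 1. The number of arrays limits the precision.

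Gene names come from the platform annotation, and probe sets listing several symbols were assigned to none. Those with a ribosomal protein symbol among several numbered 205 (51 higher, 27 lower); 17 of the 24 genes not analysed occur in them. Probe sets were placed with 5 neighbour genes on each side and the RefSeq gene table of GRCm38.p6. Members, lists, tests and named genes were chosen with earlier results of these data known. Named members are the 10 largest positive and negative differences, calls with a difference of at least 1, the stalk and the paralogues. Measured parents of the paralogues, measured genes linked to leukaemia or marrow failure, Rps6 and Rpsa are also named. Of the genes with several probe sets only some are named. Up to 4 members of each other list and direction are named. The motifs and promoters were chosen after values were seen. Alternatives were 3 scalings (further quantile normalization, equal array medians, cyclic loess), 2 filters on dim probe sets, robust estimation with an intensity trend, weighted arrays, a block on replicate number, averaging the probe sets of each gene, limma treat, leaving out each array and, added after seeing the data, the own-position probe set. Plots were drawn with matplotlib 3.10.9.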

Additional observations from a re-analysis of the deposited data

How the results depend on the processing

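The count of lower ribosomal protein genes, 10 as reported, was 6 after a further quantile normalization. It was 5 when the probe sets of each gene were averaged. With the probe set at the gene's own position, where 52 genes have a value, it was also 5. There the higher genes past a difference of 1 were 6 in place of 3, beside 1.44% of all genes at their brightest probe set. At the own-position probe set the difference of Rpl24 reversed to 1.21 and that of Rpl38 to 0.50. That of Rpsa changed sign to 0.019 and lost its call (limma adjusted p = 0.917). Leaving out each array gave 7 to 13 higher and 5 to 11 lower genes, 2 to 4 higher and 1 to 1 lower past a difference of 1, and a median difference of -0.04 to 0.06. Of 948 single-gene values over all alternatives but limma treat, 870 kept their direction or call, 47 lost the threshold and 28 gained it. The other 3 reversed in sign, Rpsa among them. The 870 include 48 changes of sign in genes called in neither setting, with sizes up to 0.35. Part of the 870 could not differ. For 32 genes the own-position probe set is the brightest one, so its value is the reported one. For the 22 genes with a single probe set, averaging leaves the difference unchanged. The filters on dim probe sets, the intensity trend and the replicate block change p-values only. With the replicate number as a block, 9 genes were higher and 9 lower, 3 and 1 past a difference of 1. Same-numbered arrays deviated from their group means with correlations of -0.11, 0.06 and -0.00, and differently numbered arrays with -0.15 to 0.12. With 3 arrays per group these values cannot settle if the numbers pair the arrays. With limma treat against a difference of 0.5, 2 genes were higher and 1 lower. Shares of all genes under the alternatives are not given here, so these counts, and those of the gene lists, describe the listed genes only. Levels below the array medians, as for Rpl7a in RAG-/- cells and for Rpl3l, Rpl10l and Rpl39l, limit what those differences can show.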
